A study of Mus musculus with 10 samples.

Results

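The collagen genes of cultured mouse muscle stem cells (MuSCs) were examined for a histone mark and for elongating RNA polymerase. Members were the autosomal protein_coding genes whose symbol reads Col, a number, a and a number, and 39 of the 14195 autosomal protein_coding genes listed in either deposited table met this rule. Of these, 37 had at least 1 listed peak of H4K20me1 (histone H4 monomethylated at lysine 20), 29 had at least 1 of Pol II S2P (the elongating form of RNA polymerase II, with phosphate on serine 2 of the C-terminal repeats), and 27 had both. GENCODE M21 holds 42 autosomal genes of this name pattern. The other 3, Col2a1, Col9a2 and Col10a1, are mainly cartilage collagens and had no peak of their own, although H4K20me1 peaks listed with neighbouring genes covered 92.4%, 100% and 100% of their lengths.

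Both signals were mapped by CUT&RUN, in which an antibody tethers a nuclease to chromatin and the released fragments are sequenced. The Ctrl cells carried the genotype Pax7CreERT/Suv4-20h1WT and the sKO cells Pax7CreERT/Suv4-20h1KO, Suv4-20h1 being another name of Kmt5b, which encodes a methyltransferase that turns H4K20me1 into dimethylated H4K20. Both genotypes thus carried the tamoxifen-inducible Cre, which is driven by Pax7 and acts in satellite cells, on a C57BL/6 background, and the tamoxifen was given to young adult mice. The cells were enriched by magnetic sorting and grown on Matrigel, itself a basement membrane extract. Each genotype had 2 libraries per antibody, which the methods call biological replicates. With no animal named for a library, the p-values rest only on the spread between libraries. The test used (limma) draws each gene's spread toward that of genes with similar scores. The SE and p-value of a named gene therefore need not show its own replicate spread. The study asked whether loss of Kmt5b changes H4K20me1 and elongating Pol II over genes.

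Collagens are trimers of chains wound into a triple helix, and each gene encodes 1 chain. Fibrillar collagens build the tensile fibres of the interstitium, type IV collagens build the network of the basement membrane that encloses each myofibre and its satellite cells, and type VI collagen forms beaded filaments close to that membrane and is needed for satellite cell self-renewal. FACIT collagens decorate fibrils without forming them. In resting muscle most collagen is made by fibroblast-like cells, although satellite cells make some, including collagen V, which holds them in quiescence. H4K20me1 is set by KMT5A, is laid over the bodies of many transcribed genes and also over silenced regions such as the inactive X chromosome.

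The values are scores, the spike-in normalised coverage that the authors deposited for each peak, and a gene's score is the sum over its peaks. The depth in reads is not known from them. Summed over all peaks, H4K20me1 scores were 15218720 and 20432644 in Ctrl against 32194136 and 35046570 in sKO, and Pol II S2P scores were 3257665 and 4243685 in Ctrl against 4885638 and 3435908 in sKO. Kmt5b itself gave H4K20me1 scores of 1332 and 1740 in Ctrl against 1934 and 2196 in sKO, and Pol II S2P scores of 24 and 62 against 48 and 22, and neither was read as a check of the deletion. Of 7 satellite cell markers, 5 had a Pol II S2P peak (Pax7, Myod1, Des, Itga7 and Vcam1), and of 7 fibroblast markers 0 had one. A Pol II S2P peak was also listed for 2 of 4 endothelial markers (Tek and Pecam1), 2 of 3 immune markers (Cd68 and Csf1r) and 1 of 3 Schwann cell markers (Sox10). Per kb of gene, Cd68, with 1 listed peak, stood at 468 in Ctrl against 553 in sKO. Myod1 stood at 464 against 292 and Des at 297 against 315. Itga7, Vcam1 and Pax7 lay at 33.2, 9.73 and 3.27 in Ctrl against 29.9, 9.30 and 3.56 in sKO. Tek, Pecam1 and Csf1r lay at 0.527 to 1.49 and Sox10 at 9.73 against 13.3. These levels count whole peaks, also any parts outside the gene. The part of other cell types in the collagen values was not tested. Ctrl Pol II S2P replicate 1 held single peaks that the others lacked. There 15 peaks scored over 5 times higher than in each of the other 3 libraries, 9 of them at least 50% exonic and 3 of them in Col1a1, against 0, 2 and 0 such peaks in the other libraries. Over all genes the share of the score in peaks at least 50% exonic (exons of GENCODE M21) was 17.1% in that library and 16.9%, 16.8% and 16.9% in Ctrl replicate 2 and the sKO libraries.

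The sequences below are promoter windows of members named in the results, and no score was computed from them. Each promoter runs from 250 bases before to 50 after the gene's start in RefSeq (GRCm38.p6), and capitals mark matches on either strand to the TATA box TATAAA, the CCAAT box, the GC box GGGCGG or the palindromic E-box CAGCTG. Col20a1 (chr2:180986285-180986584, plus strand) is shown because its start lay under the collagen Pol II S2P peak with the highest score averaged over the libraries, a long peak whose score also grows with its length, and Col5a1 (chr2:27886175-27886474, plus strand) because it was the single member whose H4K20me1 was not called different. Col4a1 (chr8:11312777-11313076, minus strand) and Col4a2 (chr8:11312555-11312854, plus strand) are shown because these genes start head to head, and their windows share 78 bases.
Col20a1: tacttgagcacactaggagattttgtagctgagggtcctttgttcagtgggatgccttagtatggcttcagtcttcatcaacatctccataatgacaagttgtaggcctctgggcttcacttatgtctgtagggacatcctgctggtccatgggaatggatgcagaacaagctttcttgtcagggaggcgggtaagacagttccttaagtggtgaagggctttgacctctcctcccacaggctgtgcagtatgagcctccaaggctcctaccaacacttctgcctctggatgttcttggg
Col5a1: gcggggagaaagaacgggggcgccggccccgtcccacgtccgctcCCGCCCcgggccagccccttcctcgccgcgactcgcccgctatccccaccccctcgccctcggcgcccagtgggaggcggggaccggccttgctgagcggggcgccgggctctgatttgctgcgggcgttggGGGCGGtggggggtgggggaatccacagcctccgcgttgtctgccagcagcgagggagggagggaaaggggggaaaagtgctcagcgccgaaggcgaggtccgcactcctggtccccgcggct
Col4a1: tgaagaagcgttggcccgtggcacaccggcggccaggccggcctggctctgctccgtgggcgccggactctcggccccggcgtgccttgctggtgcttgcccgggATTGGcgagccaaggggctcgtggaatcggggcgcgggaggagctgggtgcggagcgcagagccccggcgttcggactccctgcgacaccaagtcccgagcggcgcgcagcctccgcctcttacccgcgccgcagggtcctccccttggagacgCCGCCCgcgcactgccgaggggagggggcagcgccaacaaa
Col4a2: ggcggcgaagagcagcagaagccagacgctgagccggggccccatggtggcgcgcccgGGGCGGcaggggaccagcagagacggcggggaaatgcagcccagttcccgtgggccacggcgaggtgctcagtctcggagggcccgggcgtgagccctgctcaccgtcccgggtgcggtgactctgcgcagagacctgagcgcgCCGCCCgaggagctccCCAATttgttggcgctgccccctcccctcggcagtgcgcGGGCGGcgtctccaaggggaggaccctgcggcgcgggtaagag

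The Col20a1 window was 50% G and C, held 1 CpG and matched none of the 4 motifs. The Col5a1 window was 75% G and C with 34 CpG and 2 matches to GGGCGG, and those of Col4a1 and Col4a2 were 74.0% and 73.7% with 37 and 33. RefSeq gave 34 promoter windows for 31 members. Their median G and C content was 60.0%, against 52.7% over 32851 windows of the same length, and the median number of CpG was 12.5 against 7. GGGCGG was in 58.8% of the collagen windows and 35.7% of all windows. The other motifs were about as frequent in both sets, with 11.8% against 13.6% for TATAAA, 35.3% against 37.4% for CCAAT and 17.6% against 16.3% for CAGCTG. A match is a description of letters and not a binding site. A listed H4K20me1 peak overlapped 24 of the 34 windows and a Pol II S2P peak overlapped 6, those of Col20a1, Col23a1, Col5a1, Col5a3, Col6a5 and Col7a1. At Col5a1, Col6a5 and Col7a1 no Pol II S2P peak listed with the gene covered its start, so the overlap was with another peak.

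H4K20me1 was listed over the collagen genes in 142 peaks, a set shared by all libraries. Their lengths had a median of 9400 bases and ran from 1600 bases to the 169200 bases of the single Col5a1 peak. Of these peaks 21 covered the start of their gene and 121 did not. Per kb of gene, the median collagen score was 17.7 against 33.5 over all autosomal protein_coding genes with a peak, and the median member stood at percentile 26.3. Averaged over the 4 libraries, the highest levels per kb of gene were those of Col6a1 (68.4), Col27a1 (64.6), Col8a2 (56.1), Col5a1 (53.6) and Col7a1 (53.4). In Ctrl alone the order was Col5a1 (50.4), Col27a1 (47.7), Col15a1 (38.2) and Col6a1 (37.7), and Col6a1 led through its sKO level of 99.1. These levels count whole peaks, also their parts outside the gene, and all of these genes had more kb of peak than of gene. Col6a1 had 35.8 kb of peak on a gene of 17.4 kb. Its peak over the start, 10% inside the gene, held 770 and 874 in sKO. The lowest average was that of Col25a1 (1.57), a transmembrane collagen of neurons and myotubes whose gene spans 468 kb.

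Density within the peaks differed widely between collagen genes in Ctrl and little in sKO. Per kb of listed peak, Ctrl replicate 1 ran from 10.9 at Col6a3, a chain of the beaded filament, to 40.3 at Col5a1, a 3.70-fold range, and Ctrl replicate 2 from 13.2 to 50.8, a 3.84-fold range. In sKO the range was 1.40-fold in replicate 1 (41.0 to 57.2) and 1.60-fold in replicate 2 (36.9 to 59.1). Members with a sparse mark and members with a dense mark in Ctrl thus had similar densities per kb of listed peak in sKO. The listed peaks are shared by all libraries, so a region sparse in Ctrl can be listed through its sKO signal. A Col4a2 peak, for example, held 14 and 34 in Ctrl against 165 and 113 in sKO. How far this listing narrows the sKO range was not tested. The SD of the log2 density over the 37 members was 0.43 and 0.45 among the Ctrl libraries against 0.12 and 0.15 among those of sKO, a measure that no rescaling of a library can alter. The same narrowing was present over 11570 tested protein_coding genes, with SDs of 0.47 and 0.50 in Ctrl against 0.20 in both sKO libraries, so it was not particular to collagens.

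**Figure D1:**
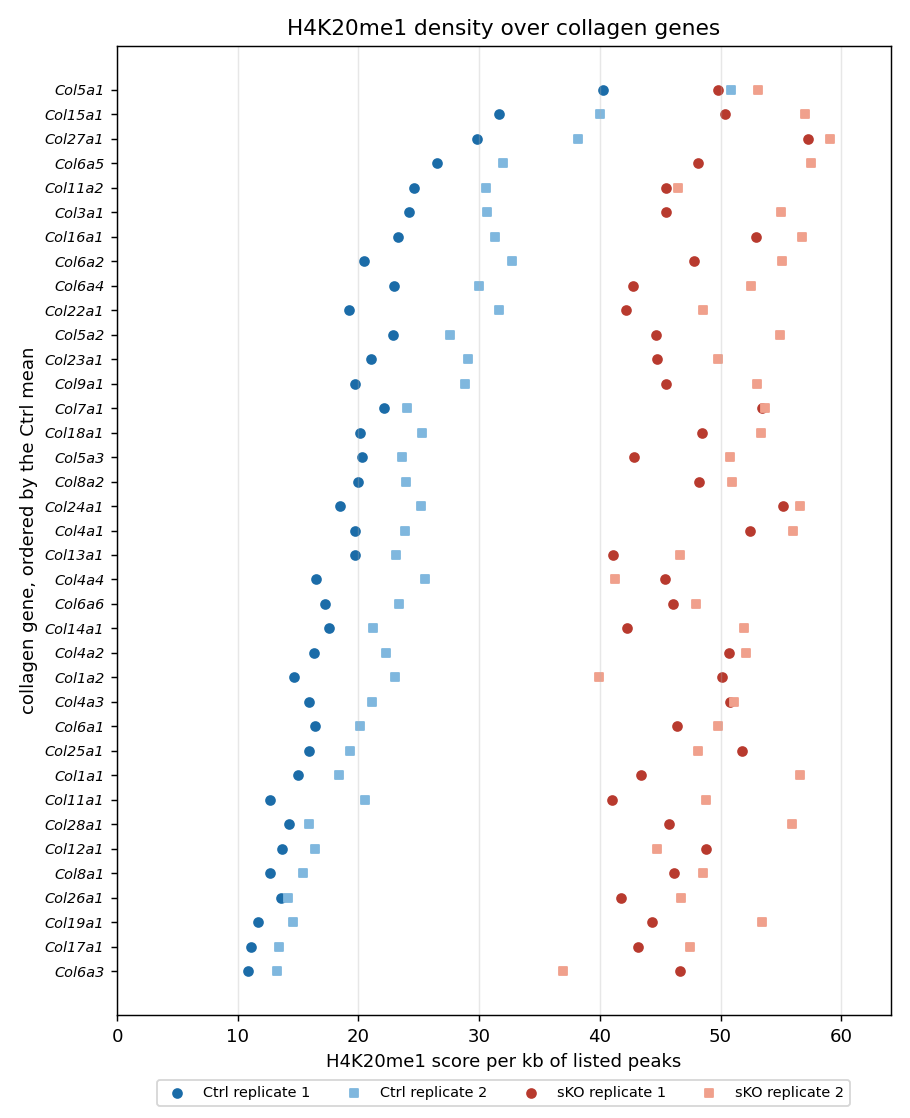
H4K20me1 score per kb of listed peaks (x axis) for each of the 37 collagen genes with a peak (y axis, ordered by the Ctrl mean), with 1 point per library, blue for Ctrl and red for sKO. The Ctrl points run from 10.9 at Col6a3 up to 50.8 at Col5a1, while all sKO points lie between 36.9 and 59.1.

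The denser the mark in Ctrl, the smaller the difference in sKO. With density taken from Ctrl replicate 1 and the change measured from Ctrl replicate 2, so that no Ctrl library entered both, Spearman's rho was -0.84 over the 37 collagens, and -0.90 with the Ctrl libraries exchanged. Over all 11570 protein_coding genes the values were -0.78 and -0.83. With so little spread in sKO, a negative rho is built in. It restates the narrowing above and is no separate result. Genes share their libraries and are not independent replicates, so no p-value is given.

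H4K20me1 rose over nearly all collagen genes on the deposited scale. By limma (adjusted p under 0.1 and log2 fold change over 0.5), 36 of 37 were called higher in sKO and 0 lower, and in 36 both sKO values exceeded both Ctrl values. The background is of the same size, since 92.3% of the 13750 autosomal genes tested were called higher, 0 lower, and 96.5% did not overlap in this direction (0.0364% in the other). At an unadjusted limma p under 0.05 there were 36 collagens, beside 90.3% of all genes. The counts are therefore no result about collagens. The median log2 fold change was 1.21 for collagens, with quartiles of 0.98 and 1.48, and 1.11 for all genes, with quartiles of 0.83 and 1.42. In a bulk assay, more cells with the mark and more mark per cell cannot be told apart. The number called rested on each sKO library, with 22 called without sKO replicate 1 and 16 without sKO replicate 2, while the collagen median was 1.22 and 1.15 in these fits.

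A difference common to all genes is removed when the libraries are scaled to equal totals. On that scale, 9 collagens were called higher and 1 lower, beside 20.8% and 5.69% of all genes. The median collagen log2 fold change became 0.23 and that of all genes 0.13, and 27 of the 37 values were above 0. Those called higher were Col1a1, Col6a3, Col8a1, Col12a1, Col17a1, Col19a1, Col25a1, Col26a1 and Col28a1, and Col5a1 was called lower. Whether a rise common to all genes belongs to the cells or to the scale between libraries cannot be told apart here.

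Among the fibrillar collagens, 9 of 10 were called higher, with a median log2 fold change of 1.03 and a range from 0.18 to 1.58. Col1a1 and Col1a2 encode the chains of type I collagen, the main protein of scar and tendon. Col1a1 scored 342 and 419 in Ctrl against 989 and 1291 in sKO, over 1 peak that covers the gene's start. Both sKO libraries were far above both Ctrl libraries, and the log2 fold change was 1.58 ± 0.27 (SE, adjusted p 3.33e-08 by limma), with 0.59 on equal totals, a call that was lost there without sKO replicate 2, where the value of 0.46 fell below the fold limit (adjusted p 0.0265 by limma). Col1a2 scored 135 and 212 in Ctrl against 461 and 367 in sKO over an inner peak. Its groups did not overlap, and its log2 fold change was 1.28 ± 0.30 (adjusted p 5.85e-05 by limma), but on equal totals it was 0.30 and not called.

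Col3a1 encodes type III collagen, the partner of type I in soft tissue. It scored 585 and 742 in Ctrl against 1100 and 1331 in sKO, which did not overlap, for a log2 fold change of 0.88 ± 0.27 (adjusted p 0.00151 by limma) that became -0.11 on equal totals. Type V collagen starts the assembly of type I fibrils, and its chain genes differed from each other. Col5a1 scored 6818 and 8602 in Ctrl against 8420 and 8985 in sKO over a peak that covered the whole gene. The groups overlapped, because sKO replicate 1 lay below Ctrl replicate 2, and the log2 fold change was 0.18 ± 0.29 (adjusted p 0.537 by limma). On equal totals Col5a1 was called lower, at -0.80, and without any 1 library the value there stayed between -0.84 and -0.76. Col5a2, which lies next to Col3a1 on chromosome 1, scored 2206 and 2662 against 4305 and 5298 (0.98 ± 0.28, adjusted p 8.66e-04 by limma), and Col5a3 scored 471 and 547 against 994 and 1179 (1.09 ± 0.27, adjusted p 8.90e-05 by limma). The sKO values of both were above those of Ctrl.

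Col27a1 and Col11a2, fibrillar chains of cartilage, had the next smallest fibrillar differences. Col27a1 scored 5055 and 6476 against 9706 and 10020 in sKO, giving a log2 fold change of 0.79. Col11a2 scored 786 and 977 against 1455 and 1486, a log2 fold change of 0.75. Both were called higher on the deposited scale, and on equal totals they stood at -0.20 and -0.24 with no call. They missed only the fold limit there (adjusted p 2.1e-04 and 0.028 by limma).

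The 4 autosomal type IV chains were all called higher, with a median of 1.37. Col4a1 and Col4a2, the ubiquitous chains of the basement membrane, are transcribed away from each other on chromosome 8 from the windows printed above. Col4a1 scored 2545 and 3082 in Ctrl against 6760 and 7226 in sKO, and Col4a2 scored 988 and 1348 in Ctrl against 3063 and 3148 in sKO. The genotypes did not overlap at either gene, and the log2 fold changes were 1.32 ± 0.29 and 1.43 ± 0.27. Their neighbours in structure, Col4a3 and Col4a4, are restricted chains best known from the kidney glomerulus and are also head to head, on chromosome 1. Col4a3 scored 950 and 1262 against 3039 and 3057, and Col4a4 scored 392 and 607 against 1081 and 982. Here too the groups did not overlap, with log2 fold changes of 1.48 and 1.08. On equal totals 0 of the 4 were called, with a median of 0.39. Col4a1, Col4a2 and Col4a3 missed only the fold limit there, at 0.34, 0.45 and 0.49 (adjusted p 7.3e-07, 1.2e-06 and 2.0e-07 by limma).

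All 7 genes of the beaded filament group were called higher, with a median of 1.23. Col6a1 and Col6a2, neighbours on chromosome 10 that encode the constant chains of type VI collagen, scored 588 and 721 against 1662 and 1782, and 704 and 1126 against 1644 and 1895. Col6a3, the third chain of that trimer, had a single peak of 6.80 kb with scores of 74 and 90 in Ctrl against 317 and 251 in sKO. All 3 genes had both sKO libraries on top, with log2 fold changes of 1.40, 0.99 and 1.78. Col6a4, Col6a5 and Col6a6 form a cluster on chromosome 9 and encode alternatives to the Col6a3 chain. Col6a4 and Col6a5 were near each other at 0.85 and 0.85, and both turned to -0.13 on equal totals. Col28a1, a related chain of nerve, scored 233 and 261 against 750 and 917, a log2 fold change of 1.75 that was also called on equal totals (0.77).

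The largest log2 fold changes were those of Col19a1 and Col17a1. Col19a1, a FACIT chain known from muscle differentiation and from synapses, scored 796 and 997 in Ctrl against 3020 and 3643 in sKO over 9 peaks. No library of one genotype came near the other, and the log2 fold change was 1.90 ± 0.27 (adjusted p 1.51e-10 by limma), with 0.91 on equal totals. The peak over its start changed most in score, from 98 and 119 to 643 and 694. Col17a1, a transmembrane chain of hemidesmosomes in epithelium, scored 160 and 193 against 622 and 684, with a log2 fold change of 1.89. Its peaks, both inside the gene, held 42 and 48 in Ctrl against 273 and 302 in sKO, and 118 and 145 against 349 and 382. Col12a1, a FACIT chain of tendon and muscle whose loss causes a myopathy, scored 466 and 561 against 1668 and 1531, with a log2 fold change of 1.64. All 6 FACIT genes with a peak and all 4 transmembrane genes were called higher, with medians of 1.16 and 1.27.

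Of the remaining classes, the short-chain network gene Col8a1, expressed in vessels and in matrix remodelling, scored 483 and 587 against 1752 and 1845, a log2 fold change of 1.75. The peak at its start held 77 and 67 in Ctrl against 369 and 421 in sKO. Col26a1 scored 313 and 325 against 960 and 1074, a log2 fold change of 1.67. In each of these genes the genotypes were well apart. The multiplexins carry a fragment with anti-angiogenic activity at their end. Col15a1 scored 3542 and 4484 against 5637 and 6383, a log2 fold change of 0.59, the second smallest of the 37, and Col18a1 scored 1656 and 2076 against 3984 and 4385, a log2 fold change of 1.17, near the 1.11 of the median gene. Both were called on the deposited scale only. On equal totals both missed only the fold limit, Col15a1 at -0.39 (adjusted p 7.0e-09 by limma) and Col18a1 at 0.19 (adjusted p 0.0098 by limma).

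**Figure D2:**
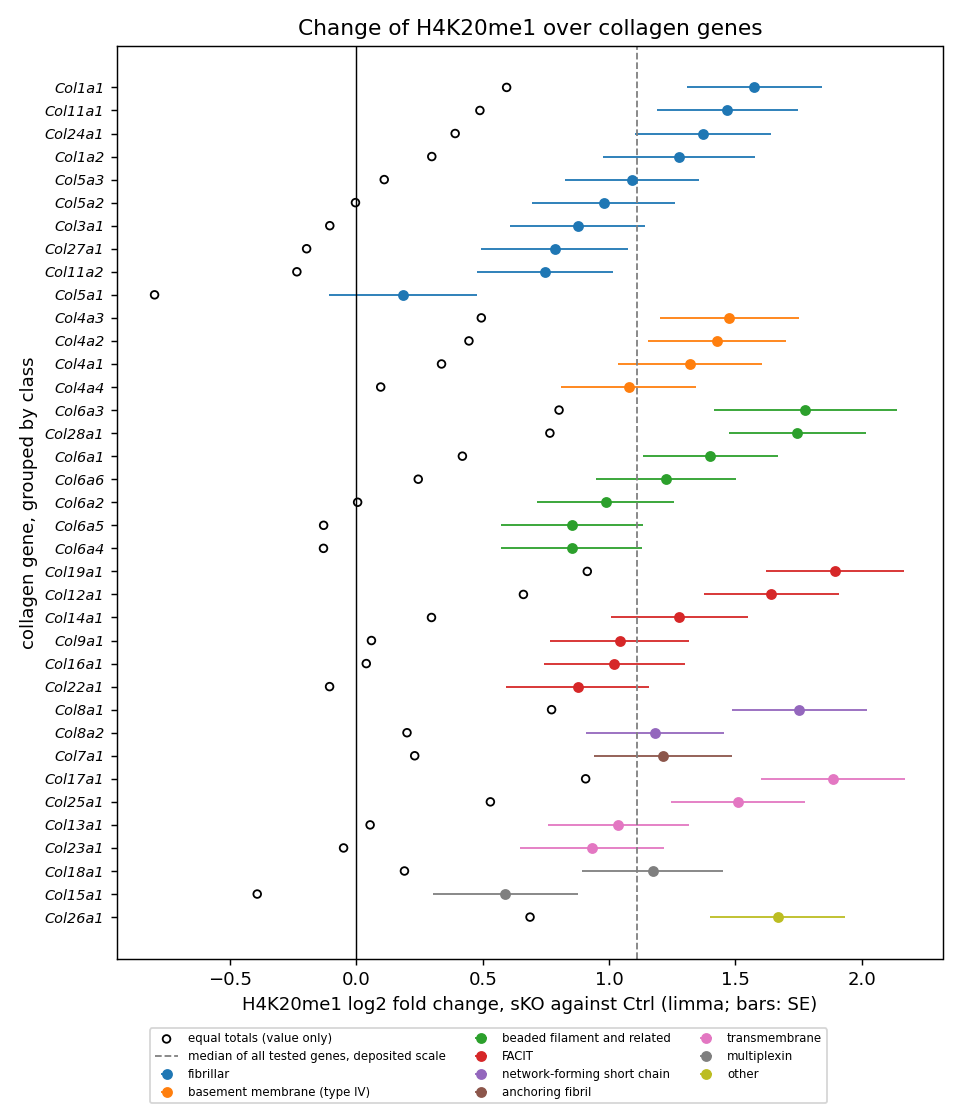
H4K20me1 log2 fold change of sKO against Ctrl (x axis, limma) for the 37 collagen genes (y axis, grouped and coloured by class), with bars for the SE, open circles for the value on equal totals and a dashed line at the median of all tested genes, 1.11. All filled points lie above 0, from 0.18 at Col5a1 to 1.90 at Col19a1, and on equal totals 27 of the 37 circles lie above 0.

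Peaks were also compared by their place in the gene. The median log2 ratio of group means was 1.14 for the 21 peaks over a gene start and 1.19 for the other 121, against 1.16 and 1.10 for the peaks of all protein_coding genes. Single peaks could depart from their gene. In Col22a1, a FACIT chain of the myotendinous junction, a peak of 2600 bases scored 45 and 104 in Ctrl against 71 and 74 in sKO, so the sKO values fell between those of Ctrl, while the gene as a whole was called higher with a log2 fold change of 0.88.

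Elongating polymerase was thin over most collagen genes. Per kb of gene, the median Pol II S2P score of the 29 members with a peak was 2.75, against 5.10 over all autosomal protein_coding genes with a peak, and the median member stood at percentile 35.5. The median length of the 132 peaks was 337 bases. Of these peaks, 6 covered the start of their own gene, at Col12a1, Col20a1, Col23a1, Col5a2, Col5a3 and Col9a3. The highest member, Col20a1, stood at percentile 90.2, counting a whole start peak of which 50% lay inside the gene. Col6a1 and Col6a2 had no listed Pol II S2P peak, and Col6a3 and Col6a5 stayed below the minimum mean score of 50 and were not tested.

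In order of mean level per kb of gene, Col20a1 (44.3) led, followed by Col1a2 (22.7), Col1a1 (18.1), Col11a2 (9.95), Col3a1 (9.38), Col5a3 (4.95), Col9a3 (4.72) and Col5a1 (4.28). The lowest were Col24a1 (0.383), Col28a1 (0.309), Col6a5 (0.208) and Col25a1 (0.160). Most neighbours in this order overlapped in the range of their 4 libraries. The ranges of Col20a1 and Col1a2, of Col3a1 and Col5a3, and of Col5a2 and Col17a1 did not. The place of Col1a1 came from 1 library, with 65.0 per kb in Ctrl replicate 1 and 0.951, 4.46 and 1.84 in the other 3.

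**Figure D3:**
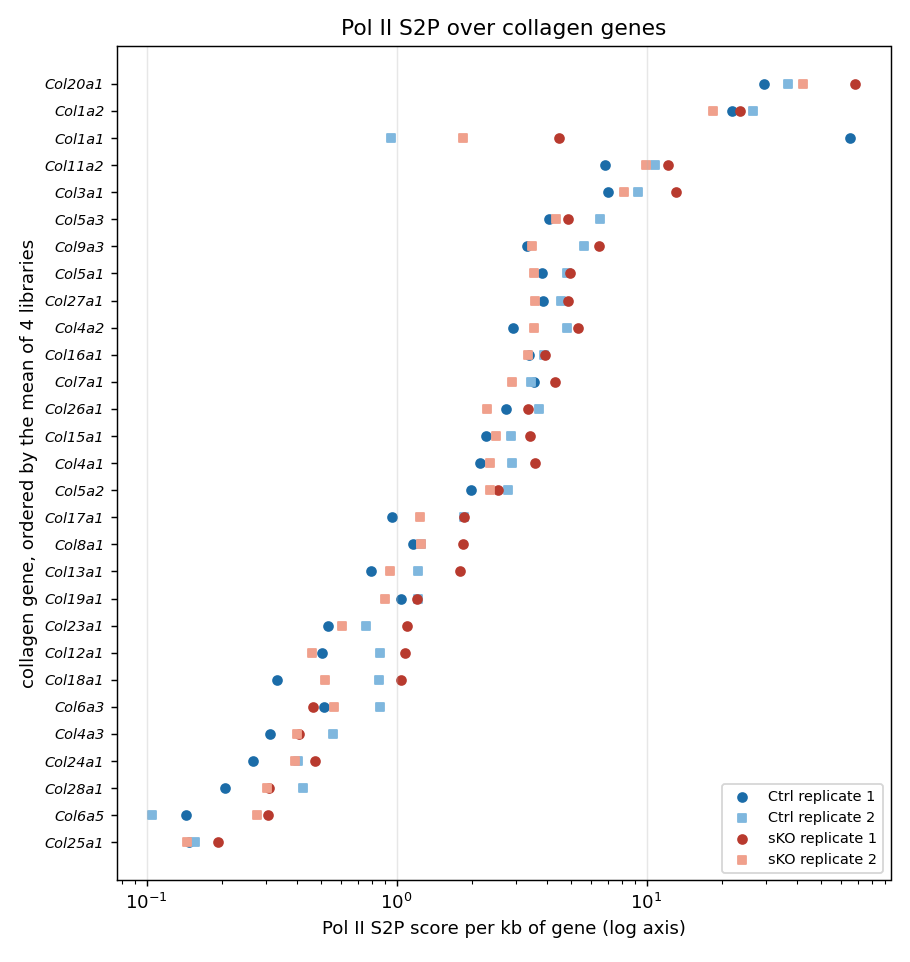
Pol II S2P score per kb of gene (x axis, log scale) for the 29 collagen genes with a peak (y axis, ordered by the mean of the 4 libraries), with 1 point per library, blue for Ctrl and red for sKO. Col20a1 leads at a mean of 44.3, the libraries of most genes lie close together, and Col1a1 has its Ctrl replicate 1 at 65.0 with the other 3 libraries below 4.5.

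Pol II S2P over collagen genes did not pass the test in either direction. By limma 0 of 27 were called higher and 0 lower, and over all 8531 genes tested the share called was 0.0% in both directions. At an unadjusted limma p under 0.05 there was 1 collagen, beside 1.17% of all genes. The median log2 fold change was 0.14 for collagens and 0.09 for all genes, and on equal totals it was -0.0024 and -0.050. In 1 collagen both sKO libraries exceeded both Ctrl libraries, beside 9.41% of all genes, and in 0 both were below, beside 4.52%. The limma calls on equal totals were 1 higher and 0 lower among the collagens, beside 1.27% and 0.856% of all genes. A miss of the threshold with 2 libraries a side does not show that the genotypes were alike.

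Of the 27 tested, the gene whose genotypes separated was Col20a1, a FACIT chain of little-known function. It scored 936 and 1172 in Ctrl against 2180 and 1349 in sKO. Both sKO libraries were higher, sKO replicate 1 by far the most. The log2 fold change was 0.71 ± 0.43 (SE, adjusted p 1 by limma), and on equal totals it was 0.57 with a limma adjusted p of 0.0027, a call that was lost without sKO replicate 1, where the value was 0.48 (adjusted p 0.274 by limma). Among the untested members Col6a5 also separated, at low scores of 15 and 11 in Ctrl against 32 and 29 in sKO. Most of the Col20a1 signal was in the peak of 3969 bases over the printed promoter, with 728 and 903 in Ctrl against 1518 and 1019 in sKO. H4K20me1 had no peak listed with Col20a1. Col9a3, a cartilage FACIT chain, also had none of its own and lay under a peak listed with Slco4a1.

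Col1a2, second in level, had 15 Pol II S2P peaks spread from near its start to its end. It scored 808 and 982 in Ctrl against 866 and 678 in sKO, so the genotypes overlapped, and the log2 fold change was -0.22 ± 0.43. Its sister gene Col1a1 behaved otherwise, with 1093 and 16 in Ctrl against 75 and 31 in sKO. The signal lay in 3 peaks of 581, 204 and 675 bases near the end of the gene, 59.7%, 71.6% and 62.7% of them exonic. In these peaks Ctrl replicate 1 held 211, 121 and 761, whereas the other libraries held at most 50. The printed stretch below is from the first of them (chr11:94950097-94950396 in GRCm38, plus strand), with 214 coding bases in capitals and 86 intronic bases in lower case. It is shown because the signal of Ctrl replicate 1 lay in these peaks, whose single scores do not separate exon from intron.
Col1a1: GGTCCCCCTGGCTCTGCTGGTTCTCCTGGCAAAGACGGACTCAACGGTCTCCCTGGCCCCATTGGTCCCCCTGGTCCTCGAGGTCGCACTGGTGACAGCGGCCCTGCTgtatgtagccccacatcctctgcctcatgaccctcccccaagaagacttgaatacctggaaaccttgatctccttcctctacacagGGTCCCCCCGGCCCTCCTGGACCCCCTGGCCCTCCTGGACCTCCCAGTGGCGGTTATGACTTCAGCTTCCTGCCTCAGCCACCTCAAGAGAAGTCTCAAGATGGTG

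Col1a1 scored 1093 and 16 in Ctrl, a distance that its limma SE, drawn toward genes of similar score, does not show. Its log2 fold change was -1.47 ± 0.45 over all libraries (adjusted p 1 by limma). Leaving out Ctrl replicate 1 gave 1.54 and leaving out Ctrl replicate 2 gave -4.47, so its direction hung on 1 library. Without Ctrl replicate 2, Col1a1 was called lower. Beside this, the share of the collagen Pol II S2P score that lay in peaks at least 50% exonic was 21.2% in Ctrl replicate 1 and 6.73%, 6.38% and 6.35% in Ctrl replicate 2 and the sKO libraries. Without Col1a1 these shares were 7.90%, 6.56%, 5.69% and 5.94%, and over all genes, as given above, the libraries ran from 16.8% to 17.1%. The cause of the signal in Ctrl replicate 1 was not tested.

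For the other well covered collagens the genotypes overlapped. Col3a1 scored 268 and 352 in Ctrl against 501 and 311 in sKO, giving a log2 fold change of 0.36 ± 0.42. Col5a1, with 14 peaks, scored 582 and 739 against 757 and 544 (-0.03 ± 0.43). Of the type IV chains, Col4a1 scored 246 and 332 against 408 and 271 (0.22 ± 0.42), and Col4a2 scored 400 and 656 against 728 and 485 (0.21 ± 0.43). In all of these sKO replicate 1 had the highest value and sKO replicate 2 lay inside or below the Ctrl range, and sKO replicate 1 also had the highest total. The next largest log2 fold changes after Col20a1 were those of Col18a1 (0.46) and Col13a1 (0.41), and neither sign held for every set of libraries. Col18a1 became -0.21 without Ctrl replicate 1 and -0.043 without sKO replicate 1. Col13a1 became 0.098 without Ctrl replicate 1 and -0.051 without sKO replicate 1.

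Of the 25 collagens tested for both signals, 24 were called higher for H4K20me1, 0 for Pol II S2P and 0 for both. Across the 27 members with both signals, the levels per kb of gene went together, with a Spearman's rho of 0.54 in Ctrl against 0.52 in sKO. Single library pairs gave 0.46 to 0.55 in Ctrl against 0.49 to 0.51 in sKO. Over 7012 protein_coding genes rho was 0.26 and 0.29. These values describe genes that share libraries and the same length in both measures, and no test of the difference was made.

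**Figure D4:**
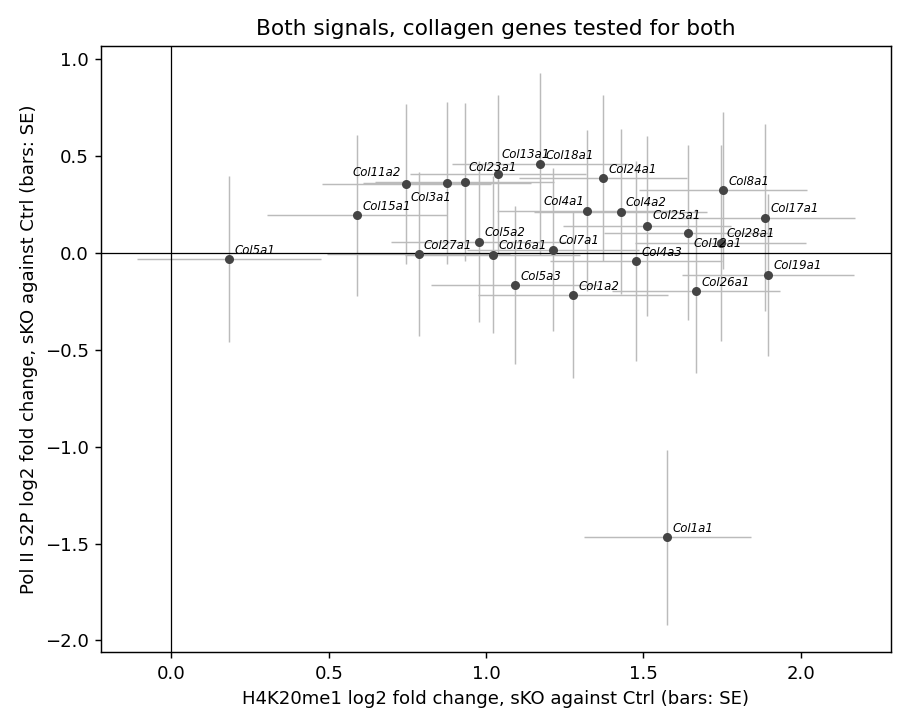
Log2 fold change of sKO against Ctrl for H4K20me1 (x axis) and Pol II S2P (y axis) in the 25 collagen genes tested for both, with bars for the SE. All points lie right of 0 on the x axis, while on the y axis most bars cross 0 and Col1a1 stands apart at -1.47, a value set by Ctrl replicate 1.

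Most genes that make, trim, bind and degrade collagen were called higher for H4K20me1, as were 92.3% of all genes. Of those tested for H4K20me1, 11 of 13 for chain modification and folding, 12 of 12 for processing and crosslinking, 8 of 10 receptors, 6 of 6 collagenases and inhibitors and 10 of 11 other matrix genes were called higher by limma, and 0 were called lower. The medians were 1.17, 1.33, 1.18, 1.33 and 1.32, beside 1.11 for all genes. For Pol II S2P, 0 of 13, 9, 5, 2 and 8 were called. Loxl3, a lysyl oxidase that crosslinks collagen, had the largest difference, with 104 and 172 in Ctrl against 740 and 830 in sKO, giving a log2 fold change of 2.54 ± 0.29. Pcolce, which speeds the removal of the C-propeptide, scored 43 and 54 in Ctrl against 201 and 254 in sKO. Its Ctrl scores alone would not have passed the minimum mean score of 50. It was tested only through its sKO scores, so its call among the 12 for processing and crosslinking carries no weight. Loxl1, a further lysyl oxidase, had a log2 fold change of 2.18. P4ha3, a prolyl hydroxylase subunit, stood at 1.91, and the gelatinase Mmp2 and its activator Mmp14 at 1.79 and 1.75.

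At the low end stood P4hb, the disulfide isomerase subunit of prolyl hydroxylase, at 0.34, with scores of 432 and 427 against 480 and 613, and the collagen receptors Ddr1 (0.33) and Itgb1 (0.39). Hspg2, which encodes the basement membrane proteoglycan perlecan, stood at 0.44. None of these 4 passed the limma test on the deposited scale, and all 4 were called lower on equal totals, with values from -0.65 to -0.54. Elongating polymerase was spread over Hspg2 in 48 peaks and over Itgb1 in 26. Tll2, a protease of the procollagen-trimming family, had the largest Pol II S2P log2 fold change of these lists, 0.73 ± 0.41, with 129 and 283 in Ctrl against 394 and 256 in sKO and groups that overlapped.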

How the data were processed

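H4K20me1 and Pol II S2P were profiled by CUT&RUN in 8 libraries, 2 for each genotype and antibody, grouped by the labelled genotype. The IgG library of each genotype was not analysed here. Per the methods and the submitters' processing notes, reads were trimmed (Trimmomatic 0.39), aligned to mm10/GRCm38 (STAR 2.7.3a) and deduplicated (Picard 2.21.7), and the notes also name the peak callers MACS2 2.1.1 and SICER 0.0.41. The authors deposited, for each union peak and library, a score that stands for coverage normalised by spike-in, with 1 gene per peak and the fraction of the peak inside that gene. Scores scale with peak length and were not treated as read counts, so the study's count test (DESeq2) was not used. No interval from counting statistics is given, and the spike-in scale could not be checked.

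Scores were summed by gene identifier. Col11a2 is written with a trailing semicolon and was included. Autosomal genes with a mean score over 50 were compared with limma 3.58.1 (trend, R 4.3.3) on log2(score + 1), which understates changes of low genes, and called where the Benjamini-Hochberg adjusted p over all genes tested was under 0.1 and the log2 fold change passed 0.5 or -0.5. The procedure was also run on simulated counts that had no shift or scale difference between libraries, so that run is no check of these scores. Alternatives were the scale between libraries, pseudocount, filter, peaks counted, replicate block and leaving out each library. Promoters are from RefSeq and exons from GENCODE M21 (pandas 2.3.3, pysam 0.24.0). Named were members with the largest and smallest fold changes and levels, the best-known chains, members called under another scale and the extremes of the pathway lists. The members and all lists were chosen with earlier results of these data known.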

Additional observations from a re-analysis of the deposited data

Results flagged for a closer look

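The X-linked type IV collagen genes were outside every comparison, because the rule and the test are limited to autosomes, and their H4K20me1 lay above the Ctrl libraries in sKO. Col4a5 scored 5056 and 6627 in Ctrl against 7865 and 8920 in sKO, with a log2 ratio of means of 0.52. Col4a6, its head-to-head neighbour, scored 9505 and 12597 against 14289 and 15647, a log2 ratio of 0.44. Neither value was tested.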

How the results depend on the processing

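Pseudocount, filter, the peaks counted and the replicate block changed no collagen call on the deposited scale. The filter changed the count of all Pol II S2P genes called higher, from 0 to 1 with a mean over 10 or with no filter. Same-numbered libraries did not deviate together (correlation 0.041 for H4K20me1 and -0.043 for Pol II S2P over genes), so the block shared only a number, and with it the collagen calls numbered 36 (all higher) for H4K20me1 and 0 in the Pol II S2P fit. The scale between libraries decided most H4K20me1 calls, by its construction, since it removes any change common to all genes.

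On equal totals the H4K20me1 calls were 2858 higher and 783 lower (2872 and 789 with the block), 9 and 1 of them collagens, and the collagen median was 0.23. For Pol II S2P, 108 and 73 were called (119 and 76 with the block), with 1 collagen higher and, with the block, 1 lower, Col1a1. Quantile normalisation gave 1426 and 1526 for H4K20me1, with 4 and 1 collagens and a median of 0.15, and 112 and 29 for Pol II S2P, with 1 collagen higher.

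On equal totals, with or without the block, these H4K20me1 values turned: Col5a1 to -0.80, Col15a1 to -0.39, Col27a1 to -0.20, Col11a2 to -0.24, Col6a4 and Col6a5 to -0.13, Col3a1 to -0.105, Col22a1 to -0.106, Col23a1 to -0.0504, Col5a2 to -0.0034, P4hb to -0.64, Ddr1 to -0.65, Itgb1 to -0.59 and Hspg2 to -0.54. The Pol II S2P collagen median turned to -0.0024. Under quantile normalisation the turned H4K20me1 values were Col5a1 -0.67, Col15a1 -0.25, Col27a1 -0.070, Col11a2 -0.33, Col6a4 -0.070, Col6a5 -0.056, Col1a2 -0.035, Col3a1 -0.26, Col5a3 -0.075, Col4a4 -0.11, Col6a2 -0.068, P4hb -0.905, Ddr1 -0.93, Itgb1 -0.53 and Hspg2 -0.45.

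Leaving out 1 library at a time gave 5249 to 13376 genes higher and 0 to 13 lower for H4K20me1, 16 to 36 collagens higher and a collagen median from 1.01 to 1.39. For Pol II S2P it gave 0 to 2 genes lower, 0 to 1 collagens lower (Col1a1, without Ctrl replicate 2) and a collagen median from -0.13 to 0.42. Pol II S2P log2 fold changes ran from -4.47 to 1.54 for Col1a1, from -0.051 to 0.87 for Col13a1, from -0.21 to 1.12 for Col18a1, from -0.076 to 0.51 for Col4a1, from -0.14 to 0.57 for Col4a2 and from -0.27 to 0.21 for Col5a1. On equal totals the counts ran from 8 to 247 higher and 8 to 196 lower over all Pol II S2P genes, with 0 to 1 collagens either way. These values on equal totals without a library, and those without mostly exonic peaks, were added after the data were seen. The causes were not tested. With 2 libraries a side, the spread between libraries limits every value.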
